A study of Mus musculus with 6 samples.

Results

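The replicative DNA helicase is the machine that opens the double helix ahead of each replication fork, and the 10 genes described here encode most of it and a factor that helps to start it. They are Mcm2, Mcm3, Mcm4, Mcm5, Mcm6 and Mcm7, which encode the subunits of the ring-shaped motor, Gins1 and Gins2 of the GINS complex, Cdc45, and Mcm10. They were taken by name, with earlier results of these data known. Every probe set annotated to exactly 1 of these symbols was included. This gave 28 probe sets of 34945 with a single gene symbol and 10 genes of 18193. The data are 6 Affymetrix arrays that cover the mouse genome, 3 for each of 2 groups of mice. The cells were tumour epithelial cells from chemically induced benign skin papillomas, sorted alive for Epcam and alpha6 integrin and against CD45, CD31 and CD140a. Sox2cKO mice carried K14CREER and SOX2fl/fl, that is, floxed Sox2 alleles and a tamoxifen-dependent Cre under the keratin 14 promoter, which is active in basal keratinocytes. The genotype of the control mice (CTRL) was labelled only as control. Both groups had received tamoxifen for 1 week, and the series speaks of 3 biological experiments without saying how many animals or tumours went into an array.

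MCM proteins are loaded onto replication origins as an inactive double ring in the G1 phase, a step called licensing. In S phase, Cdc45 and GINS join each ring to form the active CMG helicase (Cdc45, MCM, GINS), and Mcm10 is needed for it to start unwinding. The genes are classical targets of E2F transcription factors, and MCM proteins are widely used as markers of cells in cycle. In the epidermis such cells lie mainly in the basal layer, and cells that move up to differentiate leave the cycle.

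Sox2, the deleted gene, read 7.19, 8.31 and 8.18 in control replicates 1 to 3 and 4.07, 4.63 and 3.23 in Sox2cKO replicates 1 to 3 on the log2 scale of the deposited values. Its probe set was not placed relative to the floxed segment. The sort markers Itga6 (12.12 to 12.25 in controls, 12.07 to 12.45 in Sox2cKO) and Epcam (11.07 to 11.43 and 10.57 to 11.24) were high in all arrays, and Epcam was lowest in Sox2cKO replicates 2 and 3. Xist, the RNA of the silenced X in females, reached 12.03 in control replicate 2 and 11.85 in control replicate 3 but at most 7.54 in the remaining arrays, so the groups also differed in sex. All 9 tested markers of fibroblasts and pericytes read higher in Sox2cKO, with a mean log2 level of 6.74 to 7.64 in controls and 7.89 to 9.64 in Sox2cKO, highest in replicate 3. Of 7 tested leukocyte markers 5 read higher (mean levels 6.55 to 6.70 and 6.49 to 6.84), while Cd74 read lower without overlap of the groups (-1.09, unadjusted p 0.0149 and adjusted p 0.999 in limma). Higher values were also read for both tested endothelial markers (5.43 to 5.74 and 5.60 to 5.80), and Itgam, Pecam1, Cdh5, Tek and Emcn did not pass the filter on low values. The 5 melanocyte markers had mean levels of 5.71 to 6.25 in controls and 5.18 to 7.17 in Sox2cKO, highest in replicate 2. The 8 suprabasal keratinocyte markers all read higher in Sox2cKO, with mean levels of 9.64 to 10.48 and 9.81 to 10.61. The part of these cells in the results was not tested. Sex entered only as a term for the high-Xist arrays, given below. That term in effect compared Sox2cKO with control replicate 1, so it cannot separate sex from that array.

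The promoters of 4 members are shown because they carry the sequence word by which E2F proteins are known to bind. The other members with a window, Mcm2, Mcm10 and Cdc45, held none of the words searched. Whether the words bear on the measured values was not tested. A window of 300 bases was given by RefSeq (GRCm38.p6) for 7 of the 10 members, with 2 start sites for Mcm7. It ran from 250 before to 50 after a listed start site. For Mcm5 and Mcm7 these sites lay inside the bounds of the gene and not at its outer end. Mcm4, Gins1 and Gins2 had no entry. The words TTTCCCGC, TTTCGCGC, TTTGCCGC and TTTGGCGC were searched on both strands, with overlapping matches counted separately. At least 1 was found in 4 of the 8 member windows, against 2.26% of all 32851 windows. They were those of Mcm3, Mcm5, Mcm6 and the upstream of the 2 start sites of Mcm7. CCAAT, the word bound by NF-Y, was found in all 8 member windows and in 37.4% of all windows. A match is a description of the letters, and binding was not measured. The 4 windows follow 5′ to 3′ on the strand of the gene, with the E2F words in capitals.

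Mcm3, chr1:20820263-20820562, minus strand: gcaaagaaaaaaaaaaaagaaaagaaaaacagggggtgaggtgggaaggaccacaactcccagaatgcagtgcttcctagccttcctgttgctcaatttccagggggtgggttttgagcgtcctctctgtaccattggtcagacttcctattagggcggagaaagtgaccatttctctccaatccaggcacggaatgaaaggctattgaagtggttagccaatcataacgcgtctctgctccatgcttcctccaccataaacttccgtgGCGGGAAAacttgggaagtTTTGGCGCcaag

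Mcm5, chr8:75109259-75109558, plus strand: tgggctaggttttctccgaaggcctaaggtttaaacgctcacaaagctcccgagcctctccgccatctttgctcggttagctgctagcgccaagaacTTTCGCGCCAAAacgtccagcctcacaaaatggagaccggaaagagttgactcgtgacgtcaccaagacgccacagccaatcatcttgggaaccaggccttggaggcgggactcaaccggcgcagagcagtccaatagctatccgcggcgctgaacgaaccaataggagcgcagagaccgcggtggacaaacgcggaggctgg

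Mcm6, chr1:128359656-128359955, minus strand: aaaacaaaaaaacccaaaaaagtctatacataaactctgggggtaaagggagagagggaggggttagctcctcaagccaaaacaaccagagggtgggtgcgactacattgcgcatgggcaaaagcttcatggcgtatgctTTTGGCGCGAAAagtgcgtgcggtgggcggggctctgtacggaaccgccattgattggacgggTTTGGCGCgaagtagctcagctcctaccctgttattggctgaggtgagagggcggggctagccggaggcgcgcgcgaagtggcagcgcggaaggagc

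Mcm7, chr5:138171834-138172133, minus strand: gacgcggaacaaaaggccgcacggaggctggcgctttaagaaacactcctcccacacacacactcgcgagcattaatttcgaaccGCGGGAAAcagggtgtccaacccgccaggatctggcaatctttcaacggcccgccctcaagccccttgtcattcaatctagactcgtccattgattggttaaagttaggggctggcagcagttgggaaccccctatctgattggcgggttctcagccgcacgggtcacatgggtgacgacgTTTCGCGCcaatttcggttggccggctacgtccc

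In Mcm6 the first capitals hold 2 overlapping words on opposite strands, with their first bases at -110 and -106 relative to the start, and another word begins at -47. Mcm5 has a like overlapping pair at -153 and -149. In Mcm7 the words begin at -165 and 17, the latter overlapping a CCAAT, and in Mcm3 they begin at 20 and 39, after the start.

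The helicase genes read slightly lower in Sox2cKO than in control cells, but no member passed the test, and 1 Sox2cKO array accounted for much of the difference. Of the 28 member probe sets, 23 passed the filter on low values, which asked that at least 3 of the 6 arrays exceed the array's 40th percentile, and 22 of these 23 read lower. Over all 23534 probe sets tested, 47.8% read lower. The median log2 difference of the 23 was -0.18, against 0.0087 over all tested probe sets, and single differences ran from -0.41 to 0.10. In limma, 0 of the 23 had an adjusted p under 0.05 (lowest 0.9998), as did 0 of all probe sets tested (0%). The deleted gene Sox2 was not called either. With 1 probe set per gene its difference was -3.92, with an unadjusted p of 2.4e-05 and an adjusted p of 0.316 in limma. Failing this test is thus no sign that a gene was unchanged. At an unadjusted p under 0.05 in limma there was 1 member probe set, of Gins2 (0.0498), where 1.44% of all tested probe sets read lower at that level. All 3 Sox2cKO values lay below all 3 control values in 2 of the 23, and in 0 of the 23 they lay above; over all tested probe sets 3.16% were lower in this way. The 95% intervals of the other 22 probe sets included 0 and had lower bounds of -0.74 to -0.44. Fewer cycling cells and less RNA per cell cannot be told apart in such bulk samples.

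**Figure D1:**
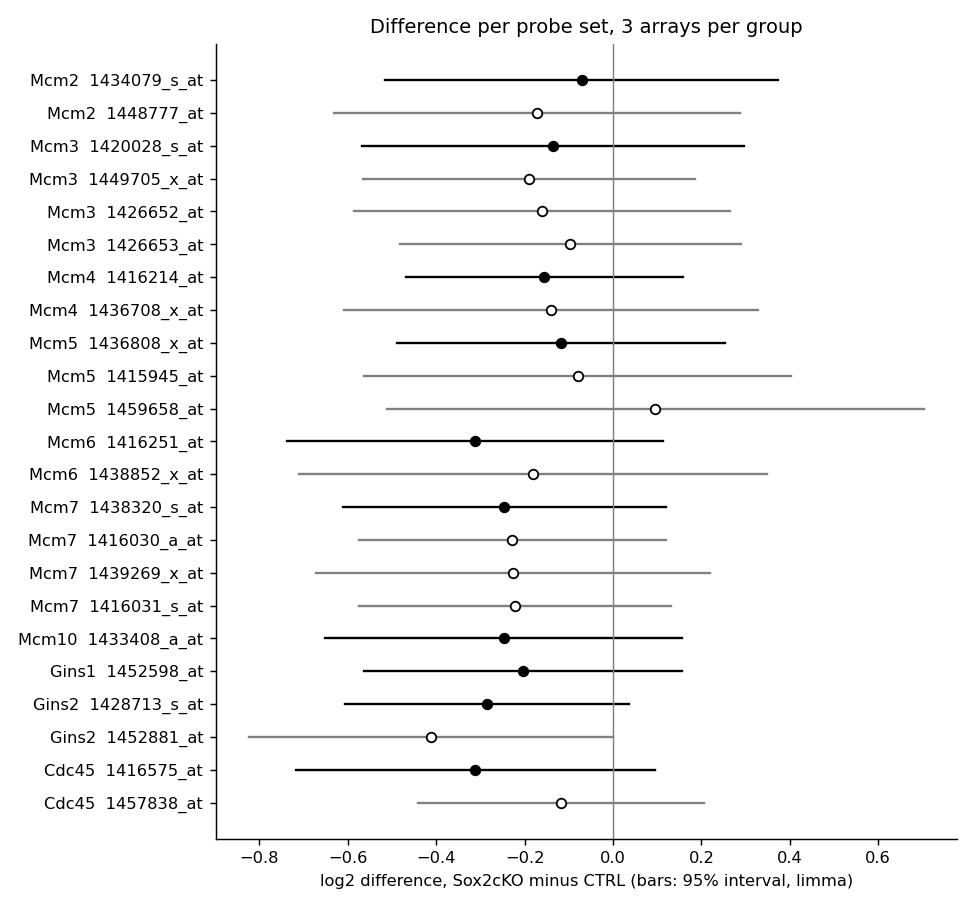
Log2 difference between Sox2cKO and CTRL (horizontal axis) for the 23 tested probe sets of the helicase genes, with 95% intervals from limma over 3 arrays per group; filled points mark the probe set with the highest mean for each gene and open points the others. All points but that of Mcm5 1459658_at lie below 0, and the interval of Gins2 1452881_at alone ends below it.

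The motor subunits Mcm2 to Mcm7 were represented by 17 tested probe sets. Mcm2 is a substrate of the kinase Cdc7. It read 9.03, 9.37 and 9.21 in control replicates 1 to 3 and 9.20, 8.78 and 9.42 in Sox2cKO replicates 1 to 3 (1434079_s_at). The groups overlapped, since Sox2cKO replicate 3 was the highest and replicate 2 the lowest of the 6 arrays. Its difference was -0.07 with a standard error of 0.19. Mcm3, a neighbour of Mcm5 in the ring, read 9.65, 9.68 and 9.69 in controls and 9.66, 9.14 and 9.81 in Sox2cKO (1420028_s_at). The controls had a mean of 9.67 ± 0.02 (SD, n = 3), and Sox2cKO replicates 1 and 3 lay within or above their range. The difference was -0.14 ± 0.18 (SE) and, without Sox2cKO replicate 2, 0.06.

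Mcm4 belongs with Mcm6 and Mcm7 to the subcomplex that was first shown to unwind DNA. It read 10.81, 10.80 and 10.86 in controls and 10.79, 10.47 and 10.76 in Sox2cKO (1416214_at). Here every Sox2cKO array was below every control array, but replicates 1 and 3 were so by a narrow margin (difference -0.16 ± 0.13 SE, 1.11-fold lower). A two-sided exact permutation test gave 0.1, and with 3 arrays a group it can give nothing smaller. The second probe set of Mcm4 (1436708_x_at) did not show this separation, because Sox2cKO replicate 3 read 10.76 there and was the highest of the 6 arrays.

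Mcm5, which forms with Mcm2 the gate through which DNA enters the ring, read 11.00, 11.13 and 11.23 in controls and 11.11, 10.72 and 11.17 in Sox2cKO (1436808_x_at, difference -0.12 ± 0.16 SE). Replicate 2 was the only Sox2cKO array outside the range of the controls. Mcm6 read 10.48, 10.75 and 10.74 in controls and 10.53, 9.99 and 10.52 in Sox2cKO (1416251_at). Its difference in this probe set was the largest of the ring subunits, -0.31 ± 0.18 (SE, 95% interval -0.74 to 0.11, 1.24-fold lower). The groups overlapped there at control replicate 1, the lowest control. The other tested probe set of Mcm6 (1438852_x_at) differed by only -0.18 ± 0.23 (SE), less than any of Mcm7. Without Sox2cKO replicate 2 it differed by 0.07. Mcm7, whose gene also houses a cluster of microRNAs in an intron, read 11.13, 11.50 and 11.35 in controls and 11.18, 10.87 and 11.20 in Sox2cKO (1438320_s_at). Its difference was -0.25 ± 0.16 (SE), and Sox2cKO replicates 1 and 3 lay inside the range of the controls.

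Mcm10 read 7.54, 8.06 and 7.74 in controls and 7.45, 7.41 and 7.73 in Sox2cKO (1433408_a_at, difference -0.25 ± 0.17 SE, 95% interval -0.65 to 0.16). Unlike most members it was low in both Sox2cKO replicates 1 and 2, and its highest value was that of control replicate 2. Gins1 read 8.77, 9.08 and 8.78 in controls and 8.73, 8.47 and 8.81 in Sox2cKO (1452598_at, difference -0.20 ± 0.15 SE). Control replicate 2 stood above and Sox2cKO replicate 2 below the other 4 arrays, which lay between 8.73 and 8.81.

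Gins2 had the largest difference of any single member probe set; by the probe set of highest mean per gene, Mcm6 and Cdc45 (both -0.31) came before it (-0.28). Its probe set 1452881_at read 7.87, 7.92 and 7.53 in controls and 7.52, 7.48 and 7.08 in Sox2cKO, a difference of -0.41 ± 0.18 (SE), or 1.33-fold lower. The groups did not overlap, but control replicate 3 and Sox2cKO replicate 1 were nearly equal (7.53 and 7.52). The unadjusted p was 0.0498 and the adjusted p 0.9998 in limma, and the two-sided exact permutation test again gave 0.1. The second probe set, 1428713_s_at, read 8.60, 8.63 and 8.46 in controls and 8.48, 8.22 and 8.15 in Sox2cKO, with a difference of -0.28 ± 0.14 (SE), and its groups overlapped at the same 2 arrays. Gins2 was also the only member whose lowest array was Sox2cKO replicate 3, in both probe sets. Without Sox2cKO replicate 2 its differences were -0.47 and -0.26.

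Cdc45, the subunit that bridges GINS and the MCM ring, read 7.38, 7.20 and 7.38 in controls and 7.28, 6.69 and 7.05 in Sox2cKO (1416575_at). Sox2cKO replicates 2 and 3 were below all controls and replicate 1 was above control replicate 2, for a difference of -0.31 ± 0.17 (SE, 95% interval -0.72 to 0.09, 1.24-fold lower). Its other probe set (1457838_at) differed by -0.12 ± 0.14 (SE).

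Probe sets of 1 gene mostly pointed the same way. Among the 8 members measured by several tested probe sets, 7 had every difference below 0, and the spread between the lowest and the highest difference of a gene lay between 0.01 and 0.21. The 4 tested probe sets of Mcm7 lay at -0.22 to -0.25, and those of Mcm3 lay at -0.10 to -0.19. The exception was Mcm5, with -0.12 and -0.08 in 2 probe sets and 0.10 in 1459658_at, which read 6.32, 6.06 and 5.67 in controls and 6.57, 5.67 and 6.10 in Sox2cKO. Probe sets of a gene share its transcripts, and those ending in _s_at or _x_at can bind related transcripts as well, so they are not independent measurements. The 5 probe sets that did not pass the filter exceeded it in at most 2 arrays and read between 3.43 and 5.25. They belong to Mcm3 (1420029_at), Mcm6 (1447756_x_at), Mcm10 (1433407_at and 1454244_at) and Gins1 (1457981_x_at), with differences of -0.19, 0.10, -0.02, 0.06 and -0.14 in that order.

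A single array stood apart for the members. Sox2cKO replicate 2 was the lowest of the 6 arrays in 21 of the 23 tested member probe sets (91.3%), against 17.1% of all tested probe sets, and in the other 2, both of Gins2, it was Sox2cKO replicate 3. It lay below the mean of the other 5 arrays in every one, by a median of 0.46 on the log2 scale (offset -0.46, range -0.71 to -0.10), where the median offset over all tested probe sets was 0.04. The largest offsets were in Mcm6 (-0.71 and -0.61) and Cdc45 1416575_at (-0.57), and the smallest in Gins2 1452881_at (-0.10). The highest array was control replicate 2 in 9 probe sets and control replicate 3 in 6, but it was a Sox2cKO array in 7. The median SD within a group was accordingly 0.14 in controls and 0.28 in Sox2cKO.

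**Figure D2:**
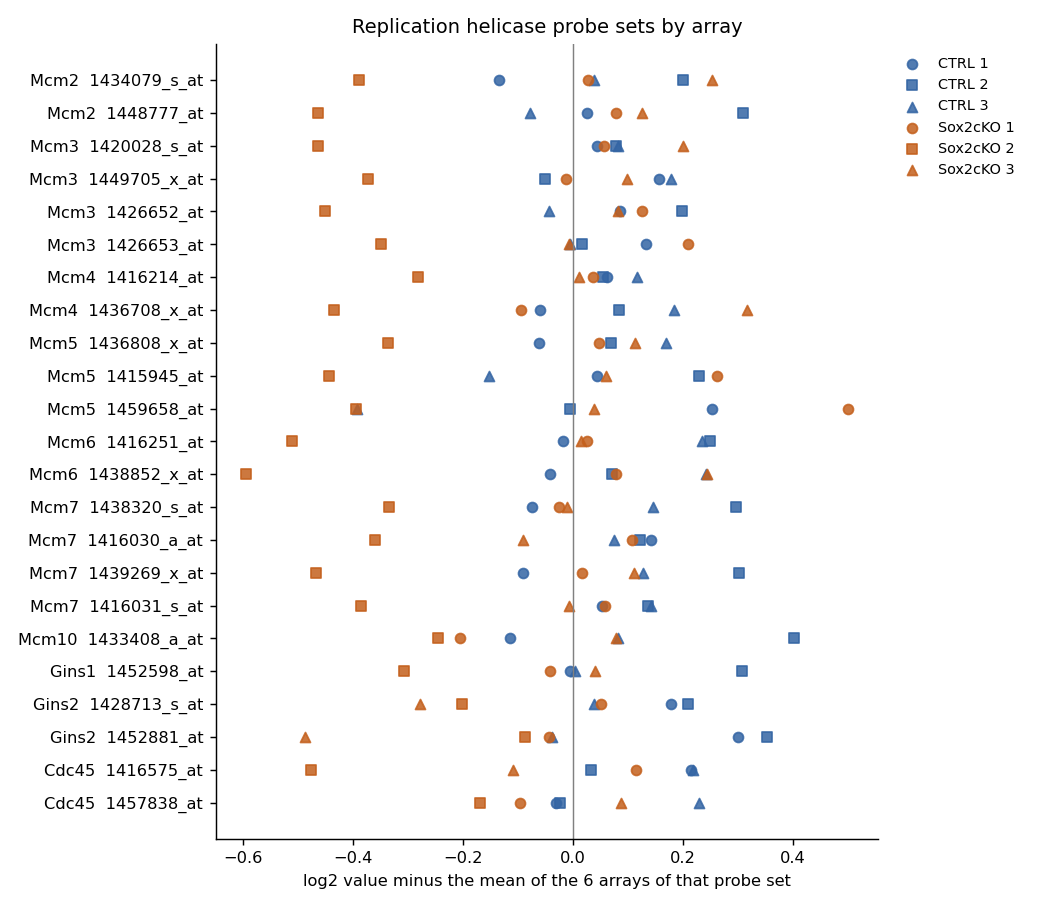
Each of the 23 tested probe sets of the helicase genes in each array, as the log2 value minus that probe set's mean over the 6 arrays (horizontal axis); blue marks CTRL, orange Sox2cKO, and circle, square and triangle mark replicates 1, 2 and 3. The orange squares of Sox2cKO replicate 2 lie farthest left in 21 of the 23 rows, while the other 5 arrays are mixed.

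Set against the control of the same replicate number, the members were lower in pair 2 alone as a group. The labels do not say what a replicate number marks. Pairs 2 and 3 set a high-Xist control against a low-Xist Sox2cKO array, and pair 1 did not. After subtracting each gene's mean, the members averaged highest in control replicate 2 (0.19) and lowest in Sox2cKO replicate 2 (-0.35). In that pair all 23 tested probe sets were lower in Sox2cKO, by -0.14 to -0.77 with a median of -0.52. In pair 1, 10 of 23 were lower and the median was 0.01. In pair 3, 14 of 23 were lower and the median was -0.02. Gins2 1452881_at kept a like size in all 3 pairs, at -0.34, -0.44 and -0.45, as did Gins2 1428713_s_at in direction (-0.13, -0.41 and -0.32). Cdc45 was also lower in every pair in both probe sets. So was Mcm10 in its only tested probe set (-0.09, -0.65 and -0.0031). The same held for Mcm3 1449705_x_at, Mcm4 1416214_at and Mcm7 1416030_a_at, but not for the other tested probe sets of these 3 genes. With the replicate number as a block in limma the median difference was the same, and Gins2 1452881_at had an unadjusted p of 0.0121 and an adjusted p of 0.799.

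Without Sox2cKO replicate 2, 13 of the 23 tested member probe sets read lower, with a median of -0.05, where 51.0% of all tested probe sets read lower. Counted with 1 probe set per gene, 7 of 10 members were then lower, and Mcm2 (0.11), Mcm3 (0.06) and Mcm5 (0.02) read higher. Mcm7 stayed below 0 in all 4 probe sets, at -0.05 to -0.14. Leaving out any of the other 5 arrays left 20 to 23 of the 23 lower, with medians of -0.13 to -0.27. When the high-Xist arrays were given a term of their own, so that Sox2cKO was in effect compared with control replicate 1, 21 of 23 read lower with a median of -0.11.

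**Figure D3:**
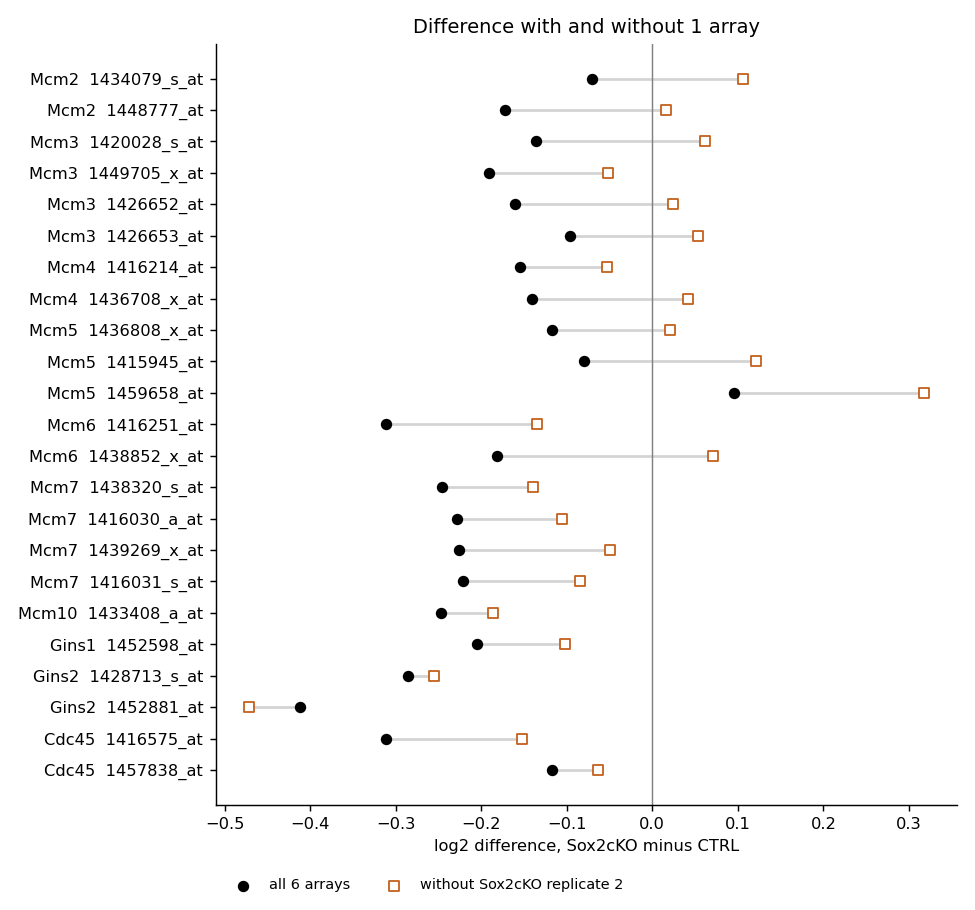
Log2 difference between Sox2cKO and CTRL (horizontal axis) for the 23 tested probe sets of the helicase genes, from all 6 arrays (black points) and without Sox2cKO replicate 2 (orange squares). The count below 0 goes from 22 to 13. Gins2 1452881_at falls further below 0, from -0.41 to -0.47, and Gins2 1428713_s_at moves from -0.28 to -0.26.

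The rest of the replication machinery read lower with it, and Sox2cKO replicate 2 was again mostly the lowest array. Of 59 other replication genes tested with 1 probe set each (Mcmdc2, Ssrp1 and Chaf1a were not analysed here), 51 read lower in Sox2cKO, with a median of -0.16, where 49.4% of all 13222 genes read lower and the median was 0.0027. All 10 helicase genes read lower by this count, with a median of -0.23. Sox2cKO replicate 2 was the lowest array in 38 of the 59, against 18.0% of all genes. In limma 0 of the 59 passed an adjusted p of 0.05, as was so for 0% of all genes. At an unadjusted p under 0.05, 2 of the 59 read lower and 0 read higher, against 1.29% and 1.38% of all genes. Averaged over genes after subtracting each gene's mean, the helicase genes stood at 0.01, 0.19 and 0.11 in control replicates 1 to 3 and at 0.01, -0.35 and 0.03 in Sox2cKO replicates 1 to 3. The 59 others stood at -0.00095, 0.20 and 0.03 and at -0.05, -0.22 and 0.04. Without Sox2cKO replicate 2, 46 of the 59 read lower, with a median of -0.07, where 52.7% of all genes read lower and the median was -0.01.

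Origin licensing genes, which load the MCM ring, were the least uniform, with 7 of 10 lower and a median of -0.10. Orc6, of the origin recognition complex, differed by -0.36 ± 0.18 (SE) and the loading factor gene Cdt1 by -0.32, while Orc5 differed by 0.19. All 8 genes of origin firing read lower, with a median of -0.17. They include Cdc7 (-0.28), the kinase that activates the MCM ring, and Ticrr (-0.36) and Mtbp (-0.21), whose products help to bring Cdc45 to it. Of the genes for DNA polymerases and primase 9 of 12 read lower, with a median of -0.20. Pold1 (-0.44 ± 0.18 SE) and Pole (-0.38 ± 0.19 SE) encode the catalytic subunits of polymerases delta and epsilon, and Pole2 (-0.22) an accessory subunit.

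Among clamp, clamp loader and lagging-strand genes 15 of 16 read lower, with a median of -0.19. Rpa3, the small subunit of the single-strand binding protein, read 9.53, 9.79 and 9.32 in controls and 9.06, 9.24 and 9.04 in Sox2cKO (-0.43 ± 0.15 SE). Its groups did not overlap, and its lowest array was not Sox2cKO replicate 2. Atad5, which unloads the clamp, differed by -0.29 and the clamp loader gene Rfc4 by -0.27. All 8 tested genes of fork progression and protection read lower, with a median of -0.19, among them the checkpoint mediator Clspn (-0.31), the chromatin assembly gene Chaf1b (-0.33) and the fork protection gene Timeless (-0.21). Of the remaining helicase and MCM-related genes 4 of 5 read lower, with a median of -0.06: the GINS subunit genes Gins3 (-0.15) and Gins4 (-0.06) and the MCM-binding protein gene Mcmbp (-0.10). Sox2cKO replicate 2 was not the lowest array of Gins3 or Gins4, where replicate 1 read 5.89 and 8.70.

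Mitotic genes, which peak after S phase, were also highest in control replicate 2 and lowest in Sox2cKO replicate 2. All 13 tested genes of a mitosis list read lower, with a median of -0.25, and their mean-centred averages were -0.03, 0.31 and 0.10 in controls and -0.12, -0.40 and 0.14 in Sox2cKO. Nusap1, a spindle protein gene, had the smallest p of the list in limma (0.0234 unadjusted, 0.999 adjusted; difference -0.35). The proliferation marker gene Mki67 differed by -0.42 and read lowest, at 10.20, in Sox2cKO replicate 2. Suprabasal keratinocyte markers stood at 0.35, -0.49 and -0.43 in controls and at 0.48, 0.40 and -0.31 in Sox2cKO. They were thus high in Sox2cKO replicate 2, where the helicase genes were low, but also in control replicate 1 and Sox2cKO replicate 1, where the helicase genes were near their mean. Melanocyte markers averaged 1.06 in Sox2cKO replicate 2 against -0.93 to 0.14 elsewhere. The part of these cells in the low helicase values of that array was not tested.

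**Figure D4:**
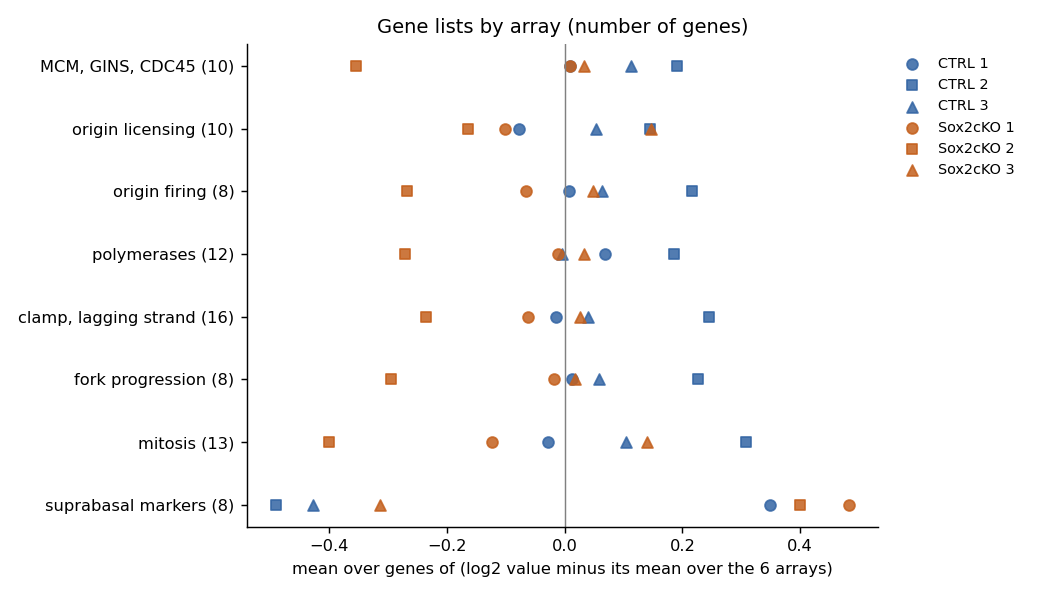
Mean over the genes of a list of the log2 value minus that gene's mean over the 6 arrays (horizontal axis), for the helicase genes, 5 other lists of replication genes, mitotic genes and suprabasal keratinocyte markers; blue marks CTRL, orange Sox2cKO, and circle, square and triangle mark replicates 1, 2 and 3, with the number of genes in brackets. Sox2cKO replicate 2 is lowest in the 7 cell cycle lists plotted, at -0.35 for the helicase genes and -0.40 for mitotic genes, and among the highest for suprabasal markers (0.40); the list of 5 remaining helicase and MCM-related genes, not plotted, has that array at 0.0060 and Sox2cKO replicate 1 lowest at -0.07.

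Across the 6 arrays the genes most like the average of the 10 members, by Pearson correlation among 13212 other genes, were Frat1 (r = 0.994), Cenpi (0.993), Anapc1 (0.992), St6galnac4 (0.991) and Crybb2 (0.990). These arrays share 2 groups and a single low array, which sets much of such a correlation. Each of the 5 read lowest in Sox2cKO replicate 2, as Cenpi did at 7.17 against 7.59 to 7.80 elsewhere. Frat1, St6galnac4 and Crybb2 had low values, between 4.72 and 5.94, where the array medians were 5.42 to 5.46. Among the members themselves Mcm6 was closest to the average (r = 0.989) and Gins2 farthest (0.585). Each member is part of that average, so these values cannot be set beside those of the other genes. Prkdc, which encodes the catalytic subunit of DNA-dependent protein kinase, lies 43 bases from Mcm4 on chromosome 16 in the RefSeq table of GRCm38.p6. It read 7.87, 7.38 and 7.47 in controls and 7.84, 7.53 and 7.42 in Sox2cKO (difference 0.02 ± 0.18 SE), and its order of arrays was not that of Mcm4.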

How the data were processed

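Per the labels' protocols, 100 ng of total RNA per sample was amplified and labelled with the GeneChip 3' IVT Express kit. The deposited values were read as log2 from their range, and R 2.14.0 is named in the submitters' processing notes. The sources used here do not give the background correction, summarising or normalization. Array medians lay between 5.42 and 5.46, so a shift shared by most genes would not be seen, and low values flatten toward background.

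Gene names came from the platform annotation, and all 10 member symbols matched RefSeq by Entrez identifier. The filter kept probe sets above the array's 40th percentile (4.90 to 4.94) in 3 or more arrays, which left 23534 with 1 gene and 13222 genes. Differences are Sox2cKO minus control, tested across all of them with limma 3.58.1 in R 4.3.3 (lmFit, eBayes, two-sided, Benjamini-Hochberg, threshold 0.05), per probe set and with the probe set of highest mean per gene. The procedure was run on simulated data with independent noise and effects far larger than the member differences. That run does not bear on differences of the size seen here. The number of arrays limits the precision, and p-values measure only the spread between these arrays.

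Genes named are all members, the 3 of smallest unadjusted p in each list of replication genes, Sox2, sort, sex-linked and neighbouring genes, and the 5 most like the members. Mki67, Nusap1 and Cd74 were picked with their values in view. The members and lists were chosen with earlier results of these data known. For each replicate number, the deviations of its control and Sox2cKO arrays from the means of their groups correlated over genes. The correlations were 0.206 to 0.288, each above 0.1, so differences were also given by replicate number as pairs. The main tests, with their intervals and p-values, compared the groups without pairing. The pairs entered limma only as the replicate block, an alternative. No arrays held identical values. Alternatives covered the block, sex, filters, scaling, the test, probe set choice and each array left out. Leaving Sox2cKO replicate 2 out of the lists was added after seeing the data.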

Additional observations from a re-analysis of the deposited data

How the results depend on the processing

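No member passed under any alternative run, so the results are directions and sizes only. With the replicate block the median over the 23 member probe sets was -0.18 and 22 read lower, and no call changed. Probe sets at an unadjusted p under 0.05 over the whole table numbered 687 without the block and 1342 with it, and genes 354 and 656. The count of member probe sets that read lower ranged from 13 to 23 when 1 array was left out, and the median from -0.27 to -0.05; for member genes the count ranged from 7 to 10 and the median from -0.27 to -0.12. Probe sets called over the whole table ranged from 0 to 7 and genes from 0 to 5 when 1 array was left out, the highest without control replicate 1, and no member was among them. With a term for high Xist, 1 probe set and 1 gene were called over the whole table, and Mcm2 (0.10) and Mcm5 (0.0032) turned to above 0. Mcm5 was also above 0 (0.10) when the probe set of highest variance stood for the gene. With 1 array left out, Mcm2 ranged from -0.22 to 0.11, Mcm3 from -0.27 to 0.061 and Mcm5 from -0.20 to 0.021, the highest without Sox2cKO replicate 2, and Mcm2 was also above 0 (0.012) without control replicate 2; the cause was not tested. Other filters, quantile normalization, median centring, 16 added on the linear scale, a trend with robust eBayes, and averaging the probe sets of a gene kept the direction of all 10 members, with medians of -0.21 to -0.23 over genes.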
